A study of Mus musculus with 18 samples.

Results

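Levels of 8 genes were compared across mouse pluripotent stem cells: *Lin28a*, *Lin28b*, *Trim71*, *Hmga1*, *Hmga2*, *Igf2bp1*, *Igf2bp2* and *Igf2bp3*. They were chosen by name, as the LIN28 proteins and the oncofetal RNA-binding and chromatin genes that belong to the same let-7 circuit, and the rule uses no measured value, although earlier results of these data were known. They are 8 of the 35773 genes in the deposited count tables, and all 8 were among the 16901 genes that passed a minimum of 10 counts in at least 3 samples. The RNA-seq data held 18 samples, 3 in each of 6 groups, and every sample was labelled as wild type of strain 129S2/SvPasCrl. ESCs were naive cells grown in 2i/LIF, EpiLCs were epiblast-like cells, and EpiSCs were epiblast stem cells. AFSCs are primed cells like EpiSCs and were kept without feeders, with activin A and bFGF added to N2B27. ASCs, named advanced pluripotent stem cells, came from AFSCs and were grown in ABCL, which is N2B27 with activin A, BMP4, CHIR99021 and LIF, whereas ESC-ASCs were ESCs converted by culture in the same medium. The methods of the study describe few founding lines, some carrying reporter transgenes on mixed backgrounds, so each group stands for few lines. The labels do not say whether the replicates were separate cultures, so p-values measure only the spread between these samples.

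LIN28A and LIN28B bind the precursors of the let-7 microRNAs and block their maturation, in part by recruiting the uridylyl transferases TUT4 and TUT7. Mature let-7 represses mRNAs that carry a match to its seed in their 3′ untranslated region, and both *Lin28* genes, *Trim71*, *Hmga2* and the *Igf2bp* genes are known targets, which closes a loop. Most of these genes are active in the early embryo, fall silent in most adult tissues and come back in tumours, hence the name oncofetal, and LIN28A is best known as one of the factors used in reprogramming to pluripotency.

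The sequences that join the members are the let-7 seed and its match. Of the mature let-7 family in RefSeq (GRCm38.p6), 9 microRNAs were read, and 9 of 9 carried the same 7-base seed, bases 2 to 8, which is in capitals in the 4 examples below. They lie at chr13:48538239-48538260 on the minus strand, chr13:48536078-48536099 on the minus strand, chr9:106178846-106178867 on the plus strand and chrX:151913229-151913250 on the plus strand, in this order.
mmu-let-7a-5p: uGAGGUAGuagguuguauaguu
mmu-let-7d-5p: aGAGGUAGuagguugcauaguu
mmu-let-7g-5p: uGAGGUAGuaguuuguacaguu
mmu-miR-98-5p: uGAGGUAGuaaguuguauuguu

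The complement of that seed, CTACCTC, was searched on the transcript strand in the longest annotated 3′ untranslated region of each protein-coding gene (GENCODE M21, GRCm38). It was present at least once in 8 of 8 members, against 1898 of 21037 genes, or 9.02%. *Lin28b*, *Trim71*, *Hmga2* and *Igf2bp1* held 4 matches each, *Lin28a* held 2, and *Hmga1*, *Igf2bp2* and *Igf2bp3* held 1 each. Long regions hold more matches, so each member was set beside the genes of like length: a match was present in 34.4% of those set beside *Igf2bp1*, whose region is 6337 bases long, and in 8.23% of those set beside *Hmga1*, with 1183 bases. As many as 4 matches occurred in 0.295% of genes of the length of *Lin28b* (4445 bases), 0.479% for *Trim71* (5512 bases), 0.123% for *Hmga2* (3014 bases) and 0.331% for *Igf2bp1*. The first match of each member is shown with its flanks, the match in capitals. A match describes these letters only, and the members are known let-7 targets by their choice.
Lin28a: gcacagcctgttgaaCTACCTCat
Lin28b: acccgggcgggaagtCTACCTCat
Trim71: aacattgcctaagtcCTACCTCag
Hmga1: tcctctgttcacaaaCTACCTCtg
Hmga2: gccgacattcaatttCTACCTCag
Igf2bp1: gctgtgcgaagtaaaCTACCTCaa
Igf2bp2: acacacaaataaaagCTACCTCag
Igf2bp3: tgcatttttactcaaCTACCTCag

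These stretches lie at chr4:134005188-134005211 for *Lin28a*, chr10:45381021-45381044 for *Lin28b*, chr9:114512471-114512494 for *Trim71*, chr10:120364223-120364246 for *Hmga2*, chr11:95961777-95961800 for *Igf2bp1*, chr16:22059472-22059495 for *Igf2bp2* and chr6:49086786-49086809 for *Igf2bp3*, all on the minus strand. That of *Hmga1* lies at chr17:27563277-27563300 on the plus strand. Mature let-7 was not measured, because the libraries were made from polyA RNA. The 12 let-7 hairpin genes in the count tables reached at most 7 counts in any sample, and 0 of 12 passed the count minimum, so nothing can be read on let-7 from these files.

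Total counts ran from 4961934 to 9906473 per sample in 5 groups and from 17813619 to 18071600 in ESC-ASCs, so depth and that group cannot be told apart. Replicate 1 of ESCs, EpiLCs, AFSCs and ASCs and replicate 2 of EpiSCs and ESC-ASCs lay farther from the other 2 libraries of their group than those lay from each other. The mitochondrial share of counts was 14.4% in AFSC replicate 1 and 8.08% in ESC replicate 1, and from 1.43% to 4.59% elsewhere. The labels were checked against markers: the summed level of 6 naive markers was 3817 to 4878 in ESCs, 3808 to 4535 in ASCs and 2819 to 3041 in ESC-ASCs, against 97.5 to 121 in EpiLCs, 9.02 to 10.4 in EpiSCs and 17.2 to 24.0 in AFSCs, with *Zfp42* at 0 in EpiSCs and *Prdm14* at 0 in AFSCs. The 5 formative and primed markers ran the other way, at 1926 to 4634 in EpiLCs, EpiSCs and AFSCs and 248 to 401 in ESCs, ASCs and ESC-ASCs. The 4 two-cell-like markers, all *Zscan4* genes that share reads, summed to 1943 to 2407 in ASCs and to at most 208 in every other sample. The 8 fibroblast markers summed to 17.3 to 127 over all samples. A level here is the count divided by the DESeq2 size factor of the library and by the exonic length in kb (normalised read count per kb), which allows genes to be compared. Since these are bulk samples, fewer cells with a transcript and less RNA per cell cannot be told apart.

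*Lin28a* (ENSMUSG00000050966, chromosome 4: 134003330-134018841, minus strand, GRCm38), the form best known from pluripotent cells, was lowest in naive ESCs and was several fold higher in each of the other 5 groups. Its levels in the 3 replicates were 71.9, 110.1 and 98.0 in ESCs, 1123, 1008 and 1026 in EpiLCs and 843, 881 and 849.7 in EpiSCs. They were 624, 841 and 808 in AFSCs, 311, 332 and 399 in ASCs and 809, 703 and 798 in ESC-ASCs. No ESC sample overlapped any other group, and the 3 ASC samples stood alone between the ESCs and the rest. EpiLCs, EpiSCs, ESC-ASCs and AFSCs followed each other in this order of their means without a difference between neighbours that passed the test. Beyond neighbours, AFSCs (log2 fold change −0.47 ± 0.15, SE, edgeR adjusted p = 0.0161) and ESC-ASCs (−0.47 ± 0.15, adjusted p = 0.0119) were below EpiLCs. ASCs lay below AFSCs and above ESCs. The fold between the highest and the lowest group mean was 11.3. In the edgeR quasi-likelihood test, with p adjusted by Benjamini-Hochberg over all genes tested, *Lin28a* was 11.2-fold higher in EpiLCs than in ESCs (log2 fold change 3.49 ± 0.17, SE, adjusted p = 3.53e-12) and 8.11-fold higher in ESC-ASCs than in ESCs (3.02 ± 0.17, adjusted p = 4.38e-11). In ASCs it was only 3.64-fold above ESCs (1.86 ± 0.16, adjusted p = 3.5e-08).

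The ASC groups therefore differed in *Lin28a*, which was 2.23-fold higher in ESC-ASCs than in ASCs (log2 fold change 1.15 ± 0.16, edgeR adjusted p = 7.31e-06). The samples of these 2 groups did not overlap. ESC-ASCs held *Lin28a* at a mean of 769.9 ± 58.5 (SD, n = 3), next to the 758 ± 117 of primed AFSCs, while their naive markers summed to 2819 to 3041. ASCs, which were derived from AFSCs, had 2.22-fold less of it than AFSCs (log2 fold change −1.15 ± 0.16, edgeR adjusted p = 3.63e-06). Among the groups in 2i/LIF and ABCL, *Lin28a* was thus lowest in ESCs, higher in ASCs and highest in ESC-ASCs. The naive marker sum overlapped between ESCs and ASCs and was lowest in ESC-ASCs.

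*Lin28b* (ENSMUSG00000063804, chromosome 10: 45376620-45470201, minus strand), the paralog known from fetal tissues and tumours, was close to absent in ESCs. Its levels were 0.729, 0.862 and 1.03 in ESCs, which rest on 2, 4 and 5 counts, 60.7, 67.3 and 59.4 in EpiLCs and 83.8, 80.3 and 79.0 in EpiSCs. They were 78.8, 48.6 and 75.4 in AFSCs, 34.2, 14.99 and 11.2 in ASCs and 24.4, 23.0 and 27.6 in ESC-ASCs. The ESC samples lay far below all others, and the ASC and ESC-ASC samples overlapped each other and lay below all primed and EpiLC samples. The group means spanned 92.7-fold, the widest of the 8 members. Because ESCs held 11 counts in all, the ratio of summed levels is given with its exact 95% interval, which covers counting error only: 89.7 (49.98 to 180.2) for EpiSCs, 69.9 (38.9 to 140.4) for EpiLCs, 27.8 (15.4 to 55.9) for ESC-ASCs and 22.3 (12.3 to 45.2) for ASCs. All 4 of these comparisons passed the edgeR test, from a log2 fold change of 6.45 ± 0.42 in EpiSCs (adjusted p = 1.18e-10) to 4.43 ± 0.46 in ASCs (adjusted p = 3.31e-07).

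ASCs held 3.42-fold less *Lin28b* than AFSCs (log2 fold change −1.77 ± 0.27, edgeR adjusted p = 1.51e-05), and EpiSCs, AFSCs and EpiLCs did not differ between neighbours. The ASC values rested on replicate 1, which held 171 counts where replicates 2 and 3 held 78 and 55. Without it, ASCs were 5.24-fold below AFSCs and 14.0-fold above ESCs. ESC-ASCs, which did not differ from ASCs with all libraries (log2 fold change 0.32 ± 0.27, edgeR adjusted p = 0.332), were then 1.92-fold above them (adjusted p = 0.000848). Within samples, *Lin28b* made up 0.941% ± 0.144 (SD, n = 3) of the summed level of both *Lin28* genes in ESCs, 3.15% ± 0.209 in ESC-ASCs, 5.62% ± 0.578 in EpiLCs and 8.63% ± 0.364 in EpiSCs. In AFSCs it ran from 5.47% to 11.2% and in ASCs from 2.72% to 9.89%, so that these groups overlapped each other and EpiLCs and EpiSCs, while ESCs lay below all other samples. *Lin28a* was the more abundant transcript per kb in 18 of 18 samples.

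**Figure D1:**
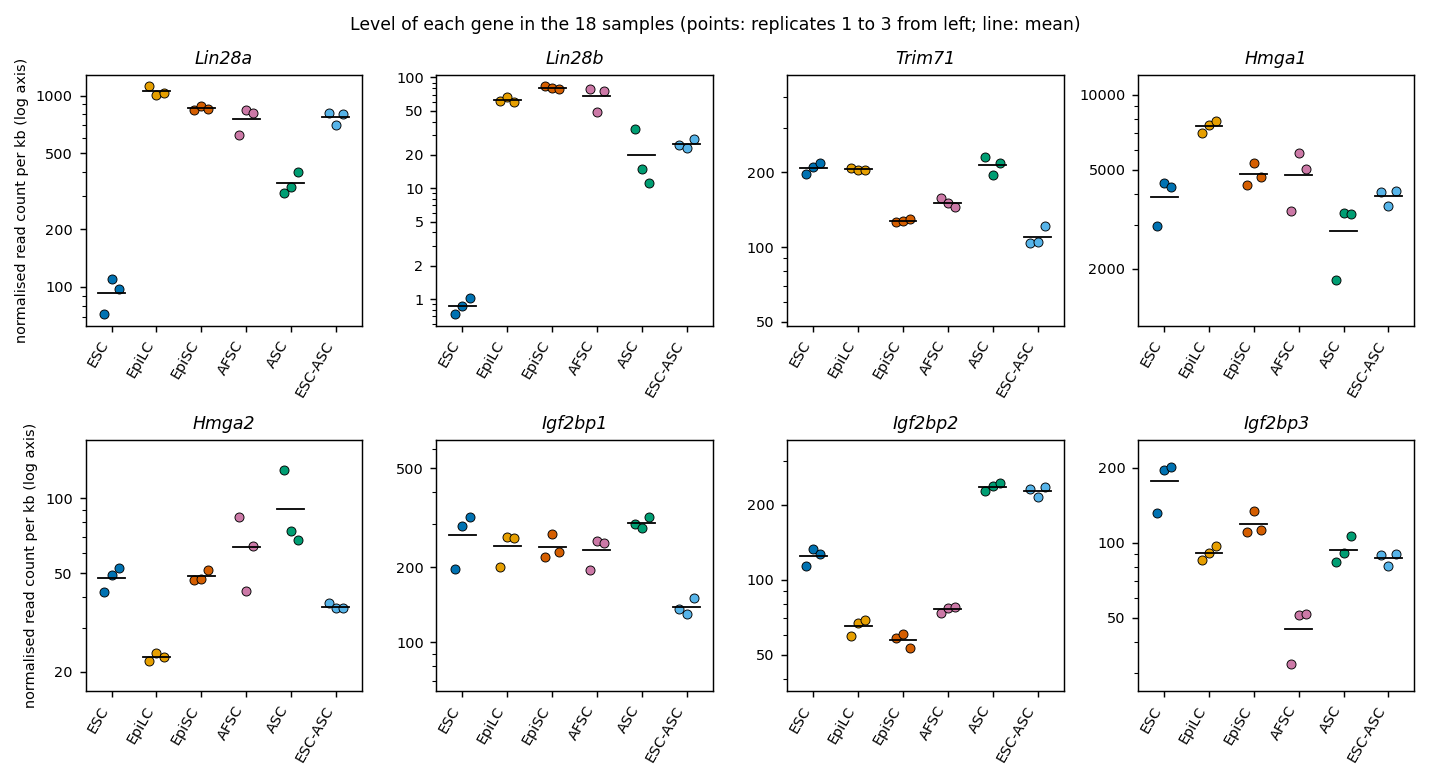
Level of each of the 8 genes (normalised read count per kb, log axis) in the 18 samples, by group; points are samples, with replicates in number order from the left, and lines are group means. *Lin28a* and *Lin28b* are lowest in the 3 ESC samples, at 71.9 to 110.1 and 0.729 to 1.03, while *Trim71* spans 1.95-fold between its highest and lowest group mean.

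*Trim71* (ENSMUSG00000079259, chromosome 9: 114507133-114564369, minus strand), which encodes a ubiquitin ligase that also binds and represses mRNAs and is a classic let-7 target, had the narrowest range of the members, 1.95-fold between group means. Its levels were 197, 210.3 and 217 in ESCs, 207, 205 and 203 in EpiLCs and 229.9, 195 and 218 in ASCs. They were 158, 150.1 and 145 in AFSCs, 126, 128 and 129 in EpiSCs and 104, 104 and 121 in ESC-ASCs. ASCs, ESCs and EpiLCs formed an upper set without a difference between neighbours, and every AFSC, EpiSC and ESC-ASC sample lay below every sample of that set. The step from EpiLCs down to AFSCs passed the test (log2 fold change −0.44 ± 0.11, edgeR adjusted p = 0.00219). The steps from AFSCs to EpiSCs (adjusted p = 0.0696) and from EpiSCs to ESC-ASCs (adjusted p = 0.0712) did not. Compared directly, ESC-ASCs were below AFSCs (−0.48 ± 0.11, adjusted p = 0.000679). ESC-ASCs held 1.91-fold less *Trim71* than ESCs (−0.94 ± 0.11, adjusted p = 5.4e-07) and 1.94-fold less than ASCs (−0.96 ± 0.11, adjusted p = 8.61e-07). ASCs held 1.39-fold more than AFSCs (0.48 ± 0.11, adjusted p = 0.000752). *Trim71* was thus among the members that set the 2 ABCL groups apart, in the opposite direction to *Lin28a*.

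*Hmga1* and *Hmga2* encode AT-hook proteins that bend DNA and shape chromatin. *Hmga1* (ENSMUSG00000046711, chromosome 17: 27556620-27563674, plus strand) was by far the more abundant member of the whole set. Its levels were 2968, 4438 and 4269 in ESCs, 7020.3, 7547 and 7869 in EpiLCs and 4359, 5318 and 4677 in EpiSCs. They were 3419, 5862 and 5028 in AFSCs, 1809, 3356 and 3314 in ASCs and 4064, 3567 and 4109 in ESC-ASCs. The EpiLC samples were above all others, the ASC samples overlapped those of ESCs alone, and replicate 1 was the lowest of its group in ESCs, EpiLCs, EpiSCs, AFSCs and ASCs. *Hmga1* was 1.93-fold higher in EpiLCs than in ESCs (log2 fold change 0.95 ± 0.23, edgeR adjusted p = 0.00169) and 1.58-fold lower in EpiSCs than in EpiLCs (−0.66 ± 0.23, adjusted p = 0.0223). The second call was lost when EpiLC replicate 2 (adjusted p = 0.0509), EpiLC replicate 3 (0.0624), EpiSC replicate 1 (0.0864) or EpiSC replicate 3 (0.0649) was left out. ASCs held 1.72-fold less than AFSCs (−0.78 ± 0.23, adjusted p = 0.0059), although their samples nearly met. Against ESCs, ASCs had a log2 fold change of −0.49 ± 0.23 (adjusted p = 0.0827), which passed without ESC replicate 1 (−0.66, adjusted p = 0.0293).

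*Hmga1b*, a near-identical copy on another chromosome, had mean levels of 2855 in ESCs, 5554 in EpiLCs, 5609.7 in EpiSCs, 3618 in AFSCs, 1908 in ASCs and 1934 in ESC-ASCs. Because fragments that map to several places were counted at each of them, the counts of both genes share fragments, and their separate levels are uncertain.

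*Hmga2* (ENSMUSG00000056758, chromosome 10: 120361275-120476469, minus strand), the best-studied let-7 target of mammals, was lowest by mean in EpiLCs and highest in ASCs. *Hmga1* had these ends reversed. Its levels were 41.9, 49.2 and 52.4 in ESCs, 22.2, 23.8 and 22.9 in EpiLCs and 46.9, 47.5 and 51.4 in EpiSCs. They were 84.1, 42.2 and 63.9 in AFSCs, 129.7, 74.1 and 67.9 in ASCs and 37.8, 36.1 and 36.2 in ESC-ASCs. EpiLCs were lowest in 3 of 3 samples, and the EpiLC and ESC-ASC samples each agreed closely while those of AFSCs and ASCs were spread widely. *Hmga2* was 2.08-fold lower in EpiLCs than in ESCs (log2 fold change −1.06 ± 0.23, edgeR adjusted p = 0.000757) and 2.09-fold higher in EpiSCs than in EpiLCs (1.07 ± 0.23, adjusted p = 0.000793). ESC-ASCs held 2.46-fold less than ASCs (−1.30 ± 0.22, adjusted p = 8.75e-05). ASCs were 1.86-fold above ESCs (0.89 ± 0.22, adjusted p = 0.00279), of which 0.54 on the log2 scale (adjusted p = 0.0285) remained without ASC replicate 1.

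*Hmga2* in ASCs against AFSCs lay at the threshold. It did not pass with all samples (log2 fold change 0.49 ± 0.22, edgeR adjusted p = 0.0575), and with the same samples it passed in DESeq2 (adjusted p = 0.0493), in edgeR with DESeq2 size factors (0.0465) and with the replicate number as a block (0.0438). It passed without AFSC replicate 1 (0.74, adjusted p = 0.00765), ASC replicate 2 (0.62, adjusted p = 0.0305) or ASC replicate 3 (0.66, adjusted p = 0.0186), and was 0.14 without ASC replicate 1. AFSCs against EpiSCs passed without AFSC replicate 2 (0.62, adjusted p = 0.0303), where all libraries gave 0.39 ± 0.22 (adjusted p = 0.175). The ratio of the *Hmga1* level to the *Hmga2* level was 326 ± 15.3 (SD, n = 3) in EpiLCs and 80.9 ± 9.71 in ESCs, 98.6 ± 11.6 in EpiSCs and 107 ± 7.42 in ESC-ASCs. It ran from 40.6 to 139 in AFSCs and from 13.9 to 48.8 in ASCs, and the EpiLC samples were the only ones above 139.

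The IGF2BP proteins bind mRNAs in the cytoplasm and are known to stabilise and localise transcripts such as *Myc*, *Igf2* and *Actb*. *Igf2bp1* (ENSMUSG00000013415, chromosome 11: 95957163-96005940, minus strand) was even across 5 groups and lower in ESC-ASCs. Its levels were 196, 294 and 318 in ESCs, 201, 264 and 263 in EpiLCs and 219, 271 and 231 in EpiSCs. They were 196, 256 and 249.9 in AFSCs, 297, 289 and 318 in ASCs and 136, 130.03 and 150.1 in ESC-ASCs. The ESC-ASC samples were below all 15 others, and replicate 1 was the lowest of its group in ESCs, EpiLCs, EpiSCs and AFSCs. ESC-ASCs held 1.97-fold less than ESCs (log2 fold change −0.98 ± 0.17, edgeR adjusted p = 8.2e-05) and 2.16-fold less than ASCs (−1.11 ± 0.17, adjusted p = 3.57e-05). No step among the other 5 groups in the order of means passed the test. EpiSCs against ESCs did not pass (−0.18 ± 0.17, adjusted p = 0.386), and did without ESC replicate 1 (−0.37, adjusted p = 0.0452).

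*Igf2bp2* (ENSMUSG00000033581, chromosome 16: 22059009-22163299, minus strand), the member that stays active in adult tissues such as muscle, was highest in both groups grown in ABCL. Its levels were 228, 239 and 244 in ASCs, 231, 215 and 237 in ESC-ASCs and 113, 133 and 127 in ESCs. They were 73.6, 76.9 and 77.7 in AFSCs, 59.3, 67.2 and 69.03 in EpiLCs and 58.5, 60.4 and 53.3 in EpiSCs. The ABCL samples overlapped each other and were above the 3 ESC samples, which in turn were above all AFSC, EpiLC and EpiSC samples. *Igf2bp2* was 1.87-fold higher in ASCs (log2 fold change 0.91 ± 0.11, edgeR adjusted p = 1.7e-06) and 1.81-fold higher in ESC-ASCs (0.86 ± 0.11, adjusted p = 1.53e-06) than in ESCs. These comparisons share the ESC samples. ASCs held 3.06-fold more than AFSCs (1.61 ± 0.11, adjusted p = 3.94e-10), and EpiSCs 2.18-fold less than ESCs (−1.13 ± 0.11, adjusted p = 3.61e-08). Between ESC-ASCs and ASCs the log2 fold change was −0.05 ± 0.11 (adjusted p = 0.712).

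*Igf2bp3* (ENSMUSG00000029814, chromosome 6: 49085223-49214957, minus strand), the form most tied to tumours, was highest in ESCs and lowest in AFSCs. Its levels were 132, 197 and 201 in ESCs, 85.4, 91.3 and 97.1 in EpiLCs and 110.2, 134 and 112 in EpiSCs. They were 32.7, 51.1 and 51.5 in AFSCs, 84.0, 91.1 and 107 in ASCs and 89.6, 80.4 and 90.4 in ESC-ASCs. The AFSC samples stood below all others, and ESC replicate 1 fell within the range of EpiSCs. *Igf2bp3* was 2.60-fold lower in AFSCs than in EpiSCs (log2 fold change −1.38 ± 0.18, edgeR adjusted p = 5.89e-06), although both are primed cells, and 2.04-fold higher in ASCs than in AFSCs (1.03 ± 0.18, adjusted p = 6.97e-05). It was 1.92-fold lower in ASCs (−0.94 ± 0.18, adjusted p = 0.000248) and 2.06-fold lower in ESC-ASCs (−1.05 ± 0.18, adjusted p = 4.62e-05) than in ESCs. EpiSCs, ASCs, EpiLCs and ESC-ASCs did not differ between neighbours, but ESC-ASCs were below EpiSCs (−0.46 ± 0.17, adjusted p = 0.0245). *Igf2bp3* shares 1529 exonic bases with *Malsu1* on the other strand, and counting ignored strand. *Malsu1* had mean levels of 223 in ESCs, 189 in EpiLCs, 213 in EpiSCs, 118 in AFSCs, 134 in ASCs and 145 in ESC-ASCs, also lowest in AFSCs, and its part in the *Igf2bp3* counts was not tested. *Lin28a*, *Trim71*, *Hmga1*, *Hmga2* and *Igf2bp1* share shorter stretches with other genes, from 43 bases (*Igf2bp1* with *Gm29202*) to 234 (*Lin28a* with *Gm13061*). The part of those genes in the counts was not tested either.

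Set against each other, the 3 *Igf2bp* genes had different proportions in different groups, and their sum ran from a mean of 355 in AFSCs to 632 in ASCs. *Igf2bp1* made up 65.8% ± 0.903 (SD, n = 3) of the sum in AFSCs, 60.6% ± 2.23 in EpiLCs and 57.7% ± 1.01 in EpiSCs, but 30.6% ± 0.839 in ESC-ASCs. *Igf2bp2* made up 50.3% ± 0.552 in ESC-ASCs and 37.5% ± 1.07 in ASCs, against 13.8% ± 1.12 in EpiSCs. *Igf2bp3* made up 30.9% ± 0.831 in ESCs and 12.6% ± 1.53 in AFSCs. Its counts may include fragments of *Malsu1*, so the sums and all 3 shares are uncertain by a part that was not tested. *Igf2bp2* was the leading transcript of the 3 in ESC-ASCs, and *Igf2bp1* in the other 5 groups. The ratios and shares gave 48 exact two-sided permutation tests over samples in the 8 comparisons, of which 37 had groups without overlap. With 3 samples against 3 an exact permutation test cannot go below p = 0.1, so none could pass, and the smallest adjusted p was 0.13.

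**Figure D2:**
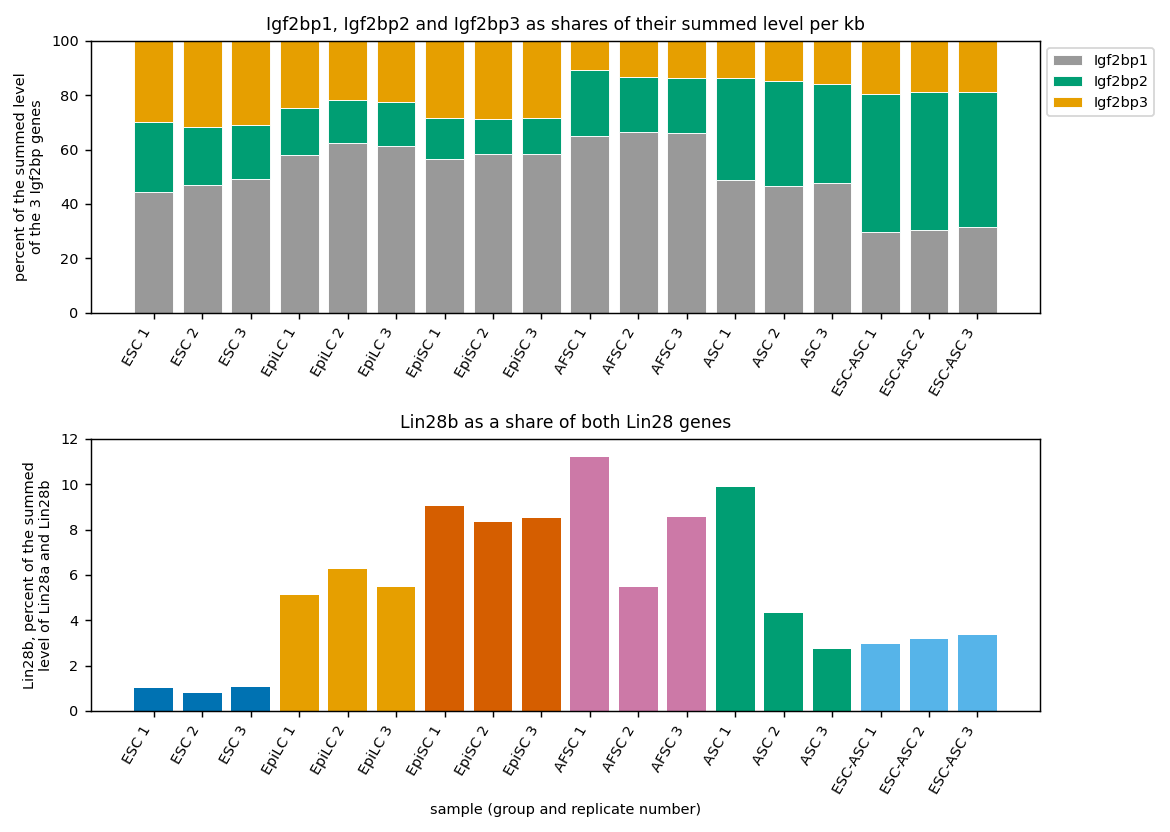
Share of each *Igf2bp* gene in their summed level (stacked bars, percent, top) and share of *Lin28b* in the summed level of both *Lin28* genes (percent, bottom), for each of the 18 samples in 6 groups. *Igf2bp2* takes 49.6% to 50.6% in the 3 ESC-ASC samples and 13.0% to 15.1% in the 3 EpiSC samples. The *Igf2bp3* counts may include fragments of *Malsu1*.

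Taking the comparisons in turn, the members were called in shares near those of all genes in several of them, and the background is given with each. EpiLCs, which model the exit from the naive state, differed from ESCs in 6 of 8 members. *Lin28a*, *Lin28b* and *Hmga1* were higher, 3 of 8, where 28.7% of all genes tested were, and *Hmga2*, *Igf2bp2* and *Igf2bp3* were lower, 3 of 8, where 26.6% were. Changes beyond 2-fold were called in 3 members, *Lin28a*, *Lin28b* and *Hmga2*, against 34% of all genes. *Igf2bp2* was 1.90-fold lower (log2 fold change −0.93 ± 0.11, edgeR adjusted p = 6.99e-07) and *Igf2bp3* 1.94-fold lower (−0.95 ± 0.18, adjusted p = 0.00014). *Trim71* (−0.01 ± 0.11, adjusted p = 0.919) and *Igf2bp1* (−0.15 ± 0.17, adjusted p = 0.482) were not called. The median log2 fold change was −0.08 over the members and 0.06 over all genes.

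EpiSCs against ESCs, the primed against the naive state, gave 2 members higher, both *Lin28* genes, where 29.2% of all genes were higher, and 3 lower, *Trim71*, *Igf2bp2* and *Igf2bp3*, where 32% were lower. Beyond 2-fold there were 3 members, against 41% of all genes. *Lin28a* was 9.06-fold higher (log2 fold change 3.18 ± 0.17, edgeR adjusted p = 6.02e-12), *Trim71* 1.64-fold lower (−0.71 ± 0.11, adjusted p = 1.13e-05) and *Igf2bp3* 1.501-fold lower with overlapping samples (−0.59 ± 0.18, adjusted p = 0.00703). Both *Lin28* genes were thus above ESCs in EpiLCs and in EpiSCs, comparisons that share the ESC samples. The median log2 fold change was −0.09 over the members and −0.04 over all genes. Between EpiSCs and EpiLCs themselves, *Hmga2* was higher, 1 of 8 where 21.5% of all genes were, and *Trim71* and *Hmga1* were lower, 2 of 8 where 27% were. *Hmga2* was the only member beyond 2-fold, against 28.6% of all genes, and *Trim71* was 1.62-fold lower (−0.70 ± 0.11, adjusted p = 2.45e-05). *Lin28a* (−0.31 ± 0.15, adjusted p = 0.103) and *Lin28b* (0.36 ± 0.25, adjusted p = 0.257) were not called. The median was −0.11 over the members and −0.07 over all genes. Without the 6 libraries that stood apart, a removal that narrows the spread by design, 7 of 8 members were called in place of 3. The share of all genes was not worked out for that fit.

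The 2 primed groups gave the fewest calls among the members. In AFSCs against EpiSCs, *Igf2bp2* was 1.34-fold higher (log2 fold change 0.42 ± 0.11, edgeR adjusted p = 0.00474), 1 of 8 where 21.6% of all genes were higher. *Igf2bp3* was lower, 1 of 8 where 17.8% were, and was the member beyond 2-fold, where 20.8% were. The other 6 were not called, among them *Lin28a* (−0.16 ± 0.15, adjusted p = 0.43) and *Lin28b* (−0.25 ± 0.25, adjusted p = 0.474). The median was −0.01 over the members and 0.02 over all genes. Without the 6 libraries that stood apart, a removal that narrows the spread by design, 4 members were called, with no share of all genes worked out.

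ASCs against ESCs, both with high naive markers, gave 4 members higher, both *Lin28* genes, *Hmga2* and *Igf2bp2*, where 26.4% of all genes were higher. *Igf2bp3* alone was lower, where 23.9% were. The *Lin28* genes were the 2 members beyond 2-fold, where 25.8% of all genes were, and the median was 0.51 over the members and 0.02 over all genes. Without ASC replicate 3, 4 members passed that limit, with no share of all genes worked out. Against AFSCs, their parent cells, ASCs had 3 members higher, *Trim71*, *Igf2bp2* and *Igf2bp3*, where 32.8% of all genes were, and 3 lower, both *Lin28* genes and *Hmga1*, where 31.2% were. Of these, 4 were beyond 2-fold, where 39.4% of all genes were, and the median was 0.41 over the members and 0.02 over all genes. Without the 6 libraries that stood apart, a removal that narrows the spread by design, 8 of 8 members were called in place of 6. The share of all genes was not worked out for that fit.

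ESC-ASCs against ESCs gave 3 higher, both *Lin28* genes and *Igf2bp2*, where 30.6% of all genes were, and 3 lower, *Trim71*, *Igf2bp1* and *Igf2bp3*, where 29.6% were. Those beyond 2-fold were 3 members, where 36.4% of all genes were. *Hmga1* (log2 fold change −0.01 ± 0.23, edgeR adjusted p = 0.976) and *Hmga2* (−0.40 ± 0.22, adjusted p = 0.127) were not called, and the median was −0.21 over the members and 0.03 over all genes. Between the 2 groups in ABCL, ESC-ASCs had *Lin28a* higher, 1 of 8 where 23% of all genes were, and *Trim71*, *Hmga2* and *Igf2bp1* lower, 3 of 8 where 27.7% were. Beyond 2-fold were 3 members, *Lin28a*, *Hmga2* and *Igf2bp1*, where 24.5% of all genes were. The median was −0.08 over the members and −0.05 over all genes. Depth, at 17813619 counts or more in each ESC-ASC sample, moves with this comparison, and its part was not tested.

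**Figure D3:**
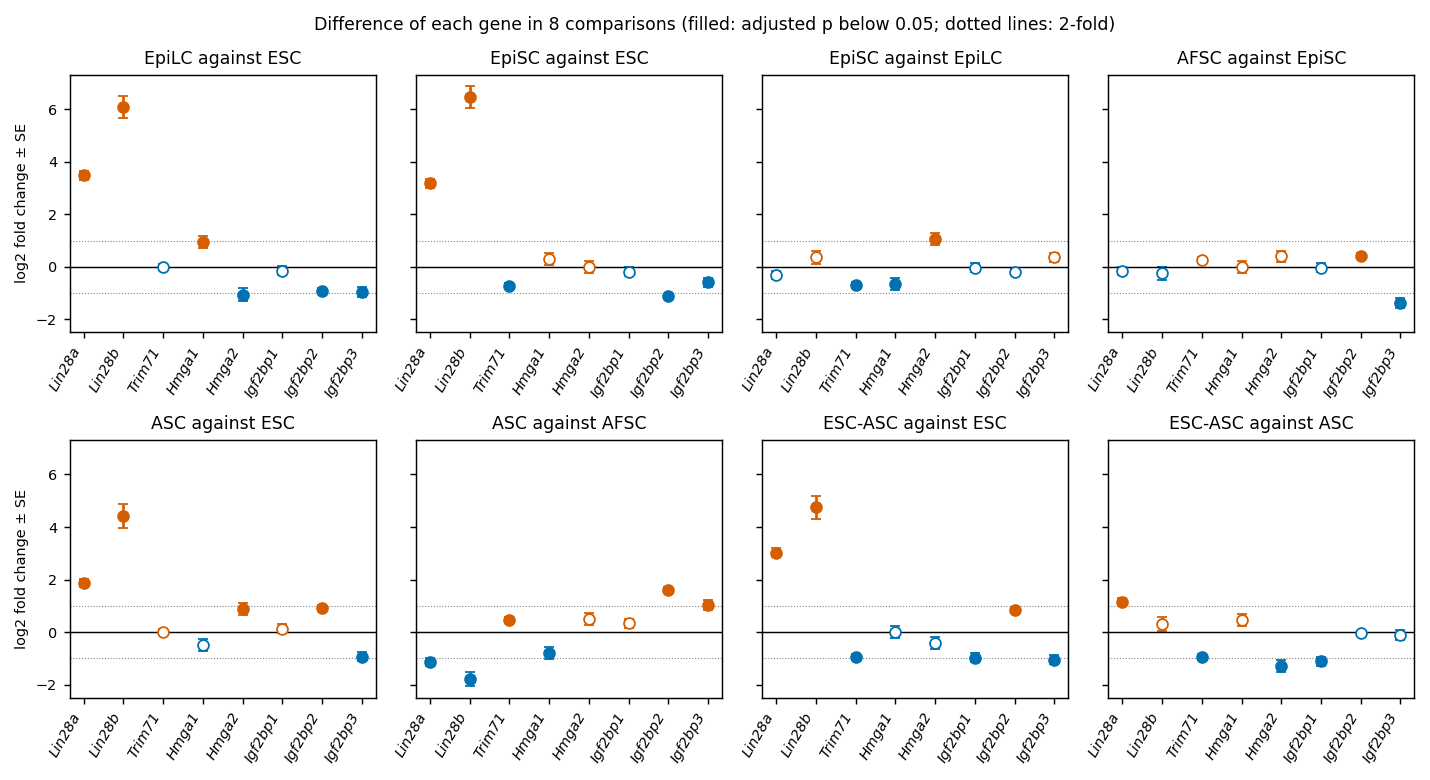
Log2 fold change of each of the 8 genes in the 8 comparisons (edgeR, error bars SE), with filled points at an adjusted p below 0.05 and dotted lines at 2-fold. *Lin28b* against ESCs lies between 4.43 and 6.45 in the 4 comparisons with ESCs, and *Igf2bp2* against ESCs changes side, from −1.13 in EpiSCs to 0.91 in ASCs.

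Genes of the same pathway were taken from lists of known function, and each count stands against the share of all genes called in that comparison. For comparisons whose list counts follow without that share, it was 28.7% higher and 26.6% lower in EpiLCs and 29.2% and 32% in EpiSCs against ESCs, 21.5% and 27% in EpiSCs against EpiLCs, 21.6% and 17.8% in AFSCs against EpiSCs, 26.4% and 23.9% in ASCs against ESCs, 32.8% and 31.2% in ASCs against AFSCs, 30.6% and 29.6% in ESC-ASCs against ESCs and 23% and 27.7% in ESC-ASCs against ASCs. Among 18 genes that process let-7 and other microRNAs, 4 were called higher and 4 lower in EpiSCs against ESCs, where all genes 29.2% higher and 32% lower were called, with a list median of −0.05 on the log2 scale beside −0.04 for all genes. These counts are below the background in both directions. *Prkra*, a DICER partner, had a mean level of 179 against 26.4 (log2 fold change 2.75 ± 0.19, edgeR adjusted p = 2.33e-10) and *Dicer1*, which cuts the hairpin, of 193 against 63.5 (1.59 ± 0.13, adjusted p = 4.4e-09), while *Tut7* was lower (−0.73 ± 0.14, adjusted p = 0.000191). In AFSCs against EpiSCs, 1 was higher and 7 lower (median −0.29 beside 0.02, all genes 21.6% higher and 17.8% lower), among them the Argonaute gene *Ago1* (−1.57 ± 0.18, adjusted p = 1.39e-06). In ASCs against AFSCs, 8 were higher and 3 lower (median 0.29 beside 0.02, all genes 32.8% higher and 31.2% lower), with *Ago2* up (1.66 ± 0.20, adjusted p = 7.03e-07) and the DICER partner *Tarbp2* down (−1.09 ± 0.12, adjusted p = 2.78e-07). ESC-ASCs held less *Dgcr8*, which recognises the primary hairpin, than ESCs (−1.69 ± 0.12, adjusted p = 7.97e-10) and than ASCs (−1.25 ± 0.12, adjusted p = 7.45e-08). *Dis3l2*, which degrades the let-7 precursor tailed through LIN28, was higher in ESC-ASCs than in ESCs (0.73 ± 0.15, adjusted p = 0.00033). The list thus moved in both directions in each comparison. In the others it gave 2 higher and 6 lower in EpiLCs against ESCs, 7 and 1 in EpiSCs against EpiLCs, 5 and 5 in ASCs and also in ESC-ASCs against ESCs, and 3 and 2 in ESC-ASCs against ASCs.

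Of 15 other known let-7 targets, 9 were higher and 1 lower in EpiSCs than in ESCs (median 0.84 beside −0.04, all genes 29.2% higher and 32% lower), and 7 higher and 1 lower in EpiLCs than in ESCs (median 0.42 beside 0.06, all genes 28.7% higher and 26.6% lower). The member called lower in both was *Ccnd1*, the cyclin D1 gene. *Myc*, a growth regulator, had a mean level of 8.63 ± 1.42 (SD, n = 3) in ESCs, 217 ± 14.6 in EpiLCs, 119.5 ± 14.5 in EpiSCs, 227 ± 30.6 in AFSCs, 53.9 ± 14.4 in ASCs and 4.95 ± 1.95 in ESC-ASCs. ESCs and ESC-ASCs were thus both low in *Myc*, whereas *Lin28a* was low in ESCs alone. The log2 fold change of *Myc* was 4.65 ± 0.25 in EpiLCs against ESCs (edgeR adjusted p = 1.12e-11) and −3.43 ± 0.24 in ESC-ASCs against ASCs (adjusted p = 2.3e-09). *Ccnd2*, another cyclin D gene, was higher in EpiSCs than in ESCs (4.72 ± 0.24, adjusted p = 3.01e-12). In ESC-ASCs against ESCs, 7 were higher and 6 lower (median −0.19 beside 0.03, all genes 30.6% higher and 29.6% lower), with *Ccnd1* at 112 against 557 (−2.33 ± 0.13, adjusted p = 6.34e-11). In ESC-ASCs against ASCs, 3 were higher and 8 lower (median −0.50 beside −0.05, all genes 23% higher and 27.7% lower). The counts were 5 and 4 in EpiSCs against EpiLCs, 1 and 6 in AFSCs against EpiSCs, 7 and 2 in ASCs against ESCs, and 2 and 6 in ASCs against AFSCs.

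Of 6 mRNAs known to be repressed by TRIM71, *Cdkn1a*, a cell cycle inhibitor, was lower in EpiLCs than in ESCs, at 241 against 1224 (log2 fold change −2.34 ± 0.18, edgeR adjusted p = 2.2e-09), in a comparison where *Trim71* itself was not called. *Egr1*, an immediate early gene, had a mean level of 6.84 ± 1.04 (SD, n = 3) in ESCs and 10.7 ± 0.896 in ESC-ASCs, and of 375 to 684 in the other 4 groups. The list held 1 higher and 4 lower in EpiLCs against ESCs (median −0.92 beside 0.06, all genes 28.7% higher and 26.6% lower), and in the other 7 comparisons from 1 to 3 higher and from 0 to 2 lower.

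Of 10 partners and mRNA cargoes of the IGF2BP proteins, 7 were higher and 1 lower in EpiSCs than in ESCs (median 0.46 beside −0.04, all genes 29.2% higher and 32% lower), and 0 higher and 7 lower in AFSCs than in EpiSCs (median −0.71 beside 0.02, all genes 21.6% higher and 17.8% lower). *Igf2*, the fetal growth factor that gave the family its name, had a mean level of 555 ± 59.6 (SD, n = 3) in ASCs, 39.4 ± 3.58 in EpiSCs, 22.7 ± 11.4 in AFSCs, 2.87 ± 1.61 in EpiLCs, 1.27 ± 0.993 in ESCs and 1.13 ± 0.331 in ESC-ASCs. ASCs and ESC-ASCs, grown in the same medium and alike in *Igf2bp2*, thus lay at opposite ends (log2 fold change −8.90 ± 0.38, edgeR adjusted p = 6.21e-12). They were not alike in *Igf2bp1*, which was lower in ESC-ASCs (−1.11 ± 0.17, adjusted p = 3.57e-05). *H19*, the neighbour of *Igf2* with opposite imprinting, was at 105 ± 7.36 in EpiLCs, 66.3 ± 1.77 in ESC-ASCs, 44.3 ± 12.5 in ASCs, 12.3 ± 6.48 in ESCs, 1.66 ± 2.87 in EpiSCs and 1.51 ± 2.62 in AFSCs. *Actb*, the classic cargo of IGF2BP1, was lower in ESC-ASCs than in ESCs (−1.87 ± 0.18, adjusted p = 5.99e-08), in a comparison where *Igf2bp1* was also lower. It was also lower than in ESCs in ASCs (−0.94 ± 0.18, adjusted p = 0.000249) and in EpiLCs (−0.48 ± 0.18, adjusted p = 0.0268), where *Igf2bp1* was not called. The other counts were 3 higher and 2 lower in EpiLCs against ESCs, 5 and 1 in EpiSCs against EpiLCs, 3 and 3 in ASCs against ESCs, 4 and 1 in ASCs against AFSCs, 1 and 3 in ESC-ASCs against ESCs and 1 and 4 in ESC-ASCs against ASCs.

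Of the 8 other HMG chromatin genes found in the files, 7 were higher and 0 lower in EpiSCs than in ESCs (median 1.35 beside −0.04, all genes 29.2% higher and 32% lower), and 6 higher and 1 lower in EpiLCs than in ESCs (median 0.91 beside 0.06, all genes 28.7% higher and 26.6% lower). *Hmgb3* had a mean level of 1024 in EpiSCs and 250.4 in ESCs (log2 fold change 2.02 ± 0.10, edgeR adjusted p = 3.57e-12). In ASCs against AFSCs, 0 were higher and 7 lower (median −0.83 beside 0.02, all genes 32.8% higher and 31.2% lower), with *Hmgn2*, a nucleosome binder, at 363 against 1466 (−2.04 ± 0.17, adjusted p = 4.57e-09), a comparison in which *Hmga1* was lower too. ESC-ASCs against ESCs gave 3 higher and 5 lower (median −0.69 beside 0.03, all genes 30.6% higher and 29.6% lower), although *Hmga1* was not called. The counts were 4 and 0 in EpiSCs against EpiLCs, 1 and 5 in AFSCs against EpiSCs, 2 and 4 in ASCs against ESCs and 1 and 2 in ESC-ASCs against ASCs. The list includes *Hmga1b*, whose counts share fragments with *Hmga1*. Several other HMG genes have processed copies in the genome, and their counts may share fragments with these.

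Of 19 other RNA-binding proteins of pluripotent and germ cells, 12 were higher and 3 lower in ASCs than in AFSCs (median 0.78 beside 0.02, all genes 32.8% higher and 31.2% lower). *Dppa5a*, a marker of naive cells, had a mean level of 24563 in ASCs and 24.8 in AFSCs (log2 fold change 9.93 ± 0.29, edgeR adjusted p = 5.35e-15). *Dazl*, a germ cell translation factor, was at 250.2 in ASCs and had 0 counts in the AFSC samples. *Esrp1*, a splicing factor of epithelia, was at 0.685 in ESCs against 114 in EpiLCs, 102 in AFSCs, 69.8 in ESC-ASCs, 34.8 in EpiSCs and 14.0 in ASCs, so that like *Lin28a* it was lowest in ESCs and next lowest in ASCs. *L1td1*, which binds LIN28A in human cells, was lower in ASCs than in AFSCs (−0.96 ± 0.13, adjusted p = 2.94e-06). The other counts were 5 higher and 8 lower in EpiLCs against ESCs, 5 and 9 in EpiSCs against ESCs, 3 and 10 in EpiSCs against EpiLCs, 4 and 5 in AFSCs against EpiSCs, 4 and 4 in ASCs against ESCs, 5 and 7 in ESC-ASCs against ESCs and 5 and 6 in ESC-ASCs against ASCs.

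Of 7 other oncofetal genes, *Afp*, which encodes the fetal serum protein used as a tumour marker, had at most 5 counts and was not tested. Of the remaining 6, 5 were higher and 1 lower in ASCs than in ESCs (median 2.76 beside 0.02, all genes 26.4% higher and 23.9% lower) and likewise than in AFSCs (median 1.58 beside 0.02, all genes 32.8% higher and 31.2% lower). *Gpc3*, a surface proteoglycan of liver tumours, was at 922 ± 214 (SD, n = 3) in ASCs and 108 ± 28.9 in ESCs (log2 fold change 3.09 ± 0.24, edgeR adjusted p = 9.76e-09). *Sall4*, a pluripotency factor, was the gene lower in ASCs than in ESCs (−0.66 ± 0.12, adjusted p = 0.000217). ESC-ASCs against ASCs gave 1 higher and 5 lower (median −1.16 beside −0.05, all genes 23% higher and 27.7% lower), with the imprinted *Peg10* at 60.6 against 652 (−3.42 ± 0.20, adjusted p = 2.2e-10). The counts were 3 higher and 2 lower in EpiLCs, in EpiSCs and in ESC-ASCs against ESCs, 2 and 0 in EpiSCs against EpiLCs and 2 and 2 in AFSCs against EpiSCs.

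**Figure D4:**
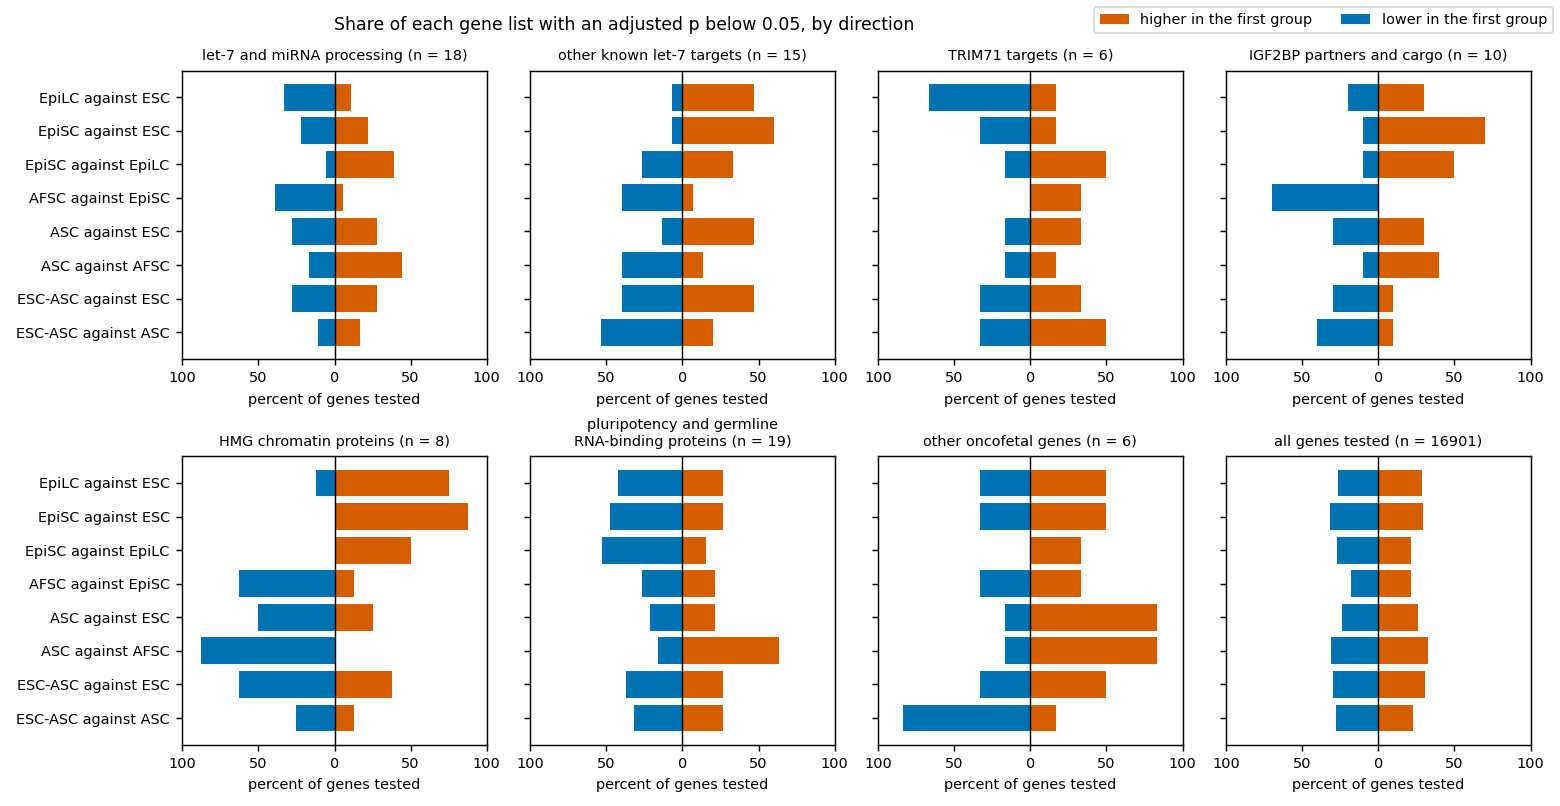
Share of the tested genes of each of 7 lists, and of all genes, called higher or lower (percent, edgeR adjusted p below 0.05) in the 8 comparisons. In ASCs against AFSCs, 7 of 8 other HMG genes are lower and 12 of 19 other RNA-binding proteins are higher, where 31.2% and 32.8% of all genes are.

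The genes most like each member over the 18 samples were found by Pearson's r of log2 levels. These are descriptions, since the samples fall into 6 groups and share their depths. *Lin28a* was close to *Ttc21b* (0.978) and *Pou4f3* (0.968), and *Lin28b* was most like *Arrb1* (0.983), *Sort1* (0.983) and *Setd7* (0.982). *Trim71* was most like *Gm21750* (0.932), *Olfr613* (0.931) and *Gm21833* (0.929). *Hmga1* was most like *Ppp1r8* (0.941), *Gpn1* (0.939) and *Fkbp1a* (0.935), and *Hmga2* like *Epha2* (0.937), *Sel1l* (0.927) and *Firre* (0.905). No member was among the 3 nearest genes of another. *Igf2bp1* was most like *4930515G01Rik* (0.969), *Epo* (0.964) and *Fasn* (0.957), *Igf2bp2* like *Nedd4l* (0.981), *Hnf4a* (0.979) and *Dhtkd1* (0.977), and *Igf2bp3* like *Rapsn* (0.920), *Zbtb1* (0.914) and *Lmnb1* (0.903). With ranks in place of log2 levels, 1 of the 3 nearest genes stayed so for *Hmga1*, 2 of 3 for *Igf2bp1* and 0 of 3 for the others. Between members, r was 0.941 for *Lin28a* and *Lin28b*, −0.805 for *Hmga1* and *Hmga2* and 0.736 for *Trim71* and *Igf2bp1*. With ranks the values were 0.742, −0.569 and 0.754.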

How the data were processed

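The files hold raw counts of fragments per gene for 18 RNA-seq samples. The authors deposited these counts after TopHat2 mapping of read pairs from polyA libraries against GRCm38 and featureCounts 1.5.0-p1 counting over Ensembl 86 exons, without strand and with multi-mapping and overlapping fragments counted at each place, so near-identical or overlapping genes share counts. Groups followed the labels. No sample was left out. The members and all gene lists were chosen with earlier results of these data known.

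Genes that reached 10 counts in 3 or more samples were tested in 1 fit of 6 groups with edgeR 4.0.16 (limma 3.58.1, R 4.3.3): TMM scaling, robust quasi-likelihood F test and Benjamini-Hochberg adjustment within each of 8 comparisons and 15 pairs for the order of levels. Called means an adjusted p below 0.05. An SE is the log2 fold change divided by the square root of F, with 12 residual degrees of freedom before moderation. Levels used DESeq2 1.42.0 size factors and exonic kb, with a pseudocount of 0.1 for likeness. Genes beyond the members are named from the lists as the 2 with the highest and the 2 with the lowest log2 fold change among those called without overlap, and as the 3 nearest by r. Not every gene so chosen is given, and 1 is not reported here. *Myc*, *Egr1*, *Igf2*, *Esrp1* and *H19* were picked to be shown across groups, and *Afp* was named, after their values were seen. Figures used Python 3.11.15, pandas 2.3.3, numpy 2.4.6 and matplotlib 3.10.9. The scripts were tested on simulated counts. Alternatives were another tool, scaling, filters, a replicate block, fewer samples and each library left out.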

Additional observations from a re-analysis of the deposited data

How the results depend on the processing

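Depth limits *Lin28b* most, which had 11 counts over the ESC samples, and 3 samples a group limit every comparison. Of the log2 fold changes of single members under alternative settings, 860 kept their direction and side of the threshold, 44 passed it newly, 5 lost it and 35 changed sign, none of them called. The number of members called in EpiSCs against EpiLCs was 3, and it was 6 with only those groups in the fit, 7 without the 4 libraries that stood apart (replicate 1 of ESCs, EpiLCs, AFSCs and ASCs) and 7 without 6 (also replicate 2 of EpiSCs and ESC-ASCs), both chosen after seeing the data. In AFSCs against EpiSCs it was 2, and 4 without the 4 and 4 without the 6. Each library removed lay outside the closest pair of its group. Those groups thus kept the 2 libraries most alike, which narrows the spread by design. The rises with these removals therefore cannot be read as results about the members. The share of all genes called was not worked out for any fit with fewer samples. In ASCs against ESCs, members beyond 2-fold numbered 2, from 2 to 4 with each library left out. *Hmga1* in ASCs against AFSCs lost its call with only those groups fitted (log2 fold change −0.75, adjusted p = 0.062).

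The replicates carry numbers in the labels. Same-numbered samples correlated at a mean of 0.123 (−0.323 to 0.626) in their deviations, above 0.1 in 22 of 45 pairs. Different numbers gave a mean of −0.0568 and 28 of 90 pairs, and 7 of 18 samples correlated best with their own number. Same-numbered samples were thus somewhat more alike on average, though not throughout. The main fit did not pair samples by number, and the block was run as an alternative. With the replicate block no member lost a call, and 4 members were called in EpiSCs against EpiLCs, 6 in ASCs against ESCs, 8 in ASCs against AFSCs and 5 in ESC-ASCs against ASCs. Over all 16901 genes tested, the block gave 8636, 8962, 11193 and 9117 calls in these comparisons, in this order. Without the block there were 8206, 8503, 10810 and 8567, so calls rose over all genes too.

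The changes of sign were small. *Hmga1* in AFSCs against EpiSCs gave −0.00539 with DESeq2, −0.00538 with its size factors and −0.0156 with the replicate block, and in ESC-ASCs against ESCs 0.00267, 0.00262 and 0.0312, and 0.0489 without a filter. *Igf2bp1* in EpiSCs against EpiLCs gave 0.00678 without a filter and 0.00229 without ESC-ASC samples. Without the 4 libraries, *Hmga2* in EpiSCs against ESCs gave −0.0724, *Igf2bp1* in AFSCs against EpiSCs 0.0871, and *Trim71* and *Igf2bp1* in ASCs against ESCs −0.0433 and −0.00608. Without the 6, *Hmga2*, *Igf2bp1* and *Trim71* gave −0.0172, 0.161 and −0.026 in these comparisons. With each library left out, the ranges that crossed 0 were −0.167 to 0.202 (*Hmga1*) and −0.101 to 0.0864 (*Igf2bp1*) in AFSCs against EpiSCs, −0.0341 to 0.0898 (*Trim71*) and −0.0575 to 0.272 (*Igf2bp1*) in ASCs against ESCs, −0.126 to 0.0479 (*Igf2bp1*) in EpiSCs against EpiLCs, −0.0852 to 0.079 (*Hmga2*) in EpiSCs against ESCs, −0.0662 to 0.0175 (*Trim71*) in EpiLCs against ESCs and −0.182 to 0.102 (*Hmga1*) in ESC-ASCs against ESCs. The cause was not tested. Of the group mean levels, 126 moved by less than 1 SD and 18 by more under another scaling or without the 6 libraries. With the share of the sample total per kb, 17 moved by more and 31 did not. TMM library sizes moved 1 by more, and all 48 moved by less without the 6 libraries. Leaving 1 library out of so small a group cannot by itself move its mean by 1 SD. The 48 were thus fixed in advance and say nothing on how stable the levels are. They are part of the 126.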
